A study of Mus musculus with 6 samples.

Results

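Genes that encode proteins of the cytosolic ribosome were followed across 6 array profiles of mouse hippocampus. Members were the genes whose symbol begins with Rpl, Rps or Rplp and a number, together with Rpsa, leaving out S6 kinase genes and pseudogenes. Only probe sets annotated with exactly 1 gene symbol were taken, and each gene was represented by the probe set with the highest mean over the 6 arrays. This gave 35 genes of the 8251 genes with a probe set of their own, 16 of the large subunit, 18 of the small subunit and 1 of the ribosomal stalk. They are only a part of the family, and Rps6, Rplp1 and Rplp2, for example, are not among them. The study is about HuD overexpressor mice, HuD being a neuronal RNA-binding protein that stabilises mRNAs, and each array holds total RNA of hippocampus. The labels assign a genotype to none of the 6 samples, so they stand without a group, are numbered as in their titles, and were compared with no test. The sources used here do not give the promoter of the transgene, the strain, the age or whether animals were pooled. The last code in the title differs for sample 2 alone (2, with 1 in the others), and its meaning is unknown.

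The cytosolic ribosome translates every nuclear-encoded mRNA. Its small subunit binds the mRNA and checks codon against anticodon, and its large subunit forms the peptide bond and releases the chain through an exit tunnel. Each protein is needed in about equal number per particle, and in mammals most of these mRNAs share a terminal oligopyrimidine (TOP) tract at their start, a C followed by a run of pyrimidines, through which mTOR signalling sets their translation together. In neurons ribosomes are also found in dendrites, where they serve local protein synthesis.

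The promoter windows of 7 members are shown because these genes span the patterns described below. Rps18, Rps10, Rps7 and Rpl6 were highest in sample 3 and lowest in sample 5. Rps19 ran otherwise, Rpl22 had the largest difference of the large-subunit genes, and Rps28 had the smallest difference of all. Each sequence is the 80 bases before and the first 20 bases from the annotated gene start, 5′ to 3′ on the gene's strand, from RefSeq (GRCm38.p6). Capitals mark an ETS core (CCGGAAG, the kind of site GABP binds), a box A palindrome core (TCTCGCGA) or a pyrimidine tract of a C and at least 4 pyrimidines whose C lies within 10 bases of the start. Both cores were searched on either strand, and overlapping matches run on as 1 stretch of capitals. The ETS core read on the other strand holds such a tract, so that 1 stretch near the start can count for both. Other members were also highest in sample 3 and lowest in sample 5. Of these, Rps3, Rps4x, Rplp0 and Rpsa held none of the marked stretches over the same bases. Rps3a1 held an ETS core and a box A core without a tract. Rpl19 held an ETS core and a tract in 1 window and a tract alone in another, neither at its gene start. Rpl7 had no window. Rps18, Rps10, Rps7 and Rpl6 each held an ETS core and a tract, so they do not stand for all 11 members with this pattern. Whether motifs go with the sample pattern was not tested.
Rps18, chr17:33955646-33955745, minus strand: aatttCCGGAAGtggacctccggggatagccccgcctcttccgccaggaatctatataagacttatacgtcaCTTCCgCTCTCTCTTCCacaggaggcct
Rps10, chr17:27635225-27635324, minus strand: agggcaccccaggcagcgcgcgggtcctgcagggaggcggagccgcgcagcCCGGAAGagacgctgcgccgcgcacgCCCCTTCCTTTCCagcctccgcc
Rps7, chr12:28635934-28636033, minus strand: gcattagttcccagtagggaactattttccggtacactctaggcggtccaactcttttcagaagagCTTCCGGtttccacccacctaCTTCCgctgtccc
Rpl6, chr5:121204421-121204520, plus strand: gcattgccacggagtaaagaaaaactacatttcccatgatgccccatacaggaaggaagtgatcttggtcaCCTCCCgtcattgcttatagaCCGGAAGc
Rps19, chr7:24884512-24884611, plus strand: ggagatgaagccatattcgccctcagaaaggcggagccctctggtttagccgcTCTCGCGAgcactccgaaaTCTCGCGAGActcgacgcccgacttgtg
Rpl22, chr4:152324356-152324455, plus strand: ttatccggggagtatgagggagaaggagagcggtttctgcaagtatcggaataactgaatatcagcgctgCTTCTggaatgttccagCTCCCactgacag
Rps28, chr17:33824543-33824642, minus strand: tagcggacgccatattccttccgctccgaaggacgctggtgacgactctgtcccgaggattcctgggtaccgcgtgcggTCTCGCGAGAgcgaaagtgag

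Windows of 300 bases, 250 before the start and 50 from it on, were found for 28 of the 35 genes, 37 windows in all since some genes have several starts. The pyrimidine tract lay within 10 bases of the start in 18 of the 37 windows (48.6%), against 30.7% of the 32851 windows in the table. The ETS core was found anywhere in 12 windows (32.4%), against 8.86% of all windows, and the palindrome core in 6 (16.2%), against 0.995%. The core AAGATGG, a YY1 site, was found in 9 windows (24.3%), against 6.34%, and the GC box GGGCGG in 21 (56.8%), against 35.7%, both on either strand. The TATA box TATAAA, searched on the gene's strand from 40 to 20 bases before the start, was found in 0 of the 37 windows, against 1.99% of all windows. Windows of 1 gene overlap in part, and a match describes the letters only.

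The deposited values are signal per probe set on a linear scale. The array medians lay between 59.9 in sample 3 and 63.3 in sample 4, with 63.1 in sample 5. The signals of an array were divided by their median without control probe sets, results under 0.2 were set to 0.2, and log2 was taken, so that 0 is the array median. Division by the median raised sample 3 relative to all other arrays. A gene is called expressed here when the median of its 6 log2 values was above 0. This applied to 4838 genes and to 25 of the 35 members, 10 of the large subunit, 14 of the small subunit and the stalk gene. The tissue check gave 8 of 8 measured neuronal markers and 6 of 7 measured hippocampal field markers as expressed. The range of a gene is its highest minus its lowest log2 value, and differences are read between samples. The level of a gene on its array serves only to sort genes into bright and dim, since probe sets differ in how strongly they bind.

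Ribosomal protein genes differed little from sample to sample, about as little as other bright genes. The median range of the 25 expressed members was 0.29 on the log2 scale (1.22-fold), against 0.40 (1.32-fold) for all 4838 expressed genes. Since bright genes range less, the members were also set beside the 467 other genes in the top 10% of mean level, whose median range was 0.28. Of the 25 members 0 had a range over 1, where 4.2% of the expressed genes had one. Of the members, 19 lay below the median range of expressed genes, and the 6 above it were Rps13, Rpl22, Rps29, Rps19, Rps3 and Rps18.

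**Figure D1:**
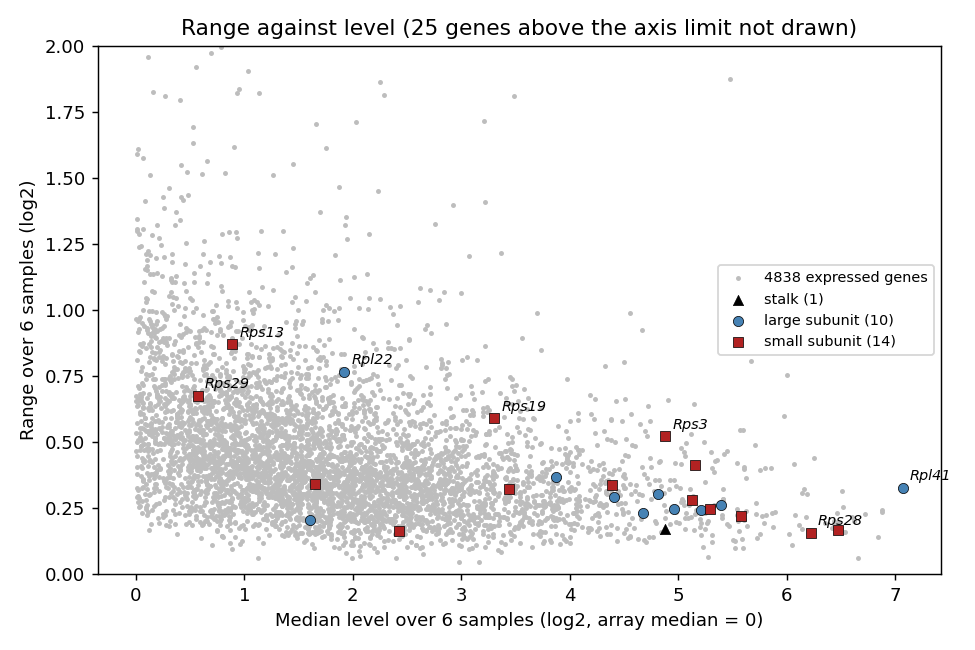
Range over the 6 samples (log2, vertical axis) against median level (log2, array median at 0, horizontal axis) for the 4838 expressed genes (grey points, 25 of them above the axis limit of 2 and not drawn), with the stalk gene, the 10 large-subunit genes and the 14 small-subunit genes marked. Most members at high level lie low in range, between 0.16 and 0.59 for the 19 with a level over 3. Of these, Rps19, Rps3 and Rps18 lie above the median range of expressed genes (0.40). The widest members, Rps13, Rpl22 and Rps29, are among the dimmer ones.

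Many members had their highest value in sample 3, and many their lowest in sample 5. Of the 25 expressed members, 15 had their highest value in sample 3, where 31.1% of all expressed genes and 45.4% of the 467 other bright genes had theirs. The lowest value was in sample 5 for 17 of the 25, against 20% of expressed genes and 22.1% of the other bright genes. Sample 3 was above sample 5 for 22 of the 25 members, against 64.3% of expressed genes and 81.6% of the other bright genes, and Rpl13a, Rps19 and Rps29 were the exceptions. Both extremes lay in this pair of samples for 11 of the 25 members, and the other 14 had at least 1 of them elsewhere. The share of all expressed genes with both extremes there was not counted, so that these 11 have no background to be read against. The pair of samples was chosen after the values were seen. By deposited signal, with no scaling of this work, 13 members were highest in sample 3, against 19.1% of expressed genes, and 16 lowest in sample 5, against 17.3%.

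Every other sample held fewer highest values than sample 3 and fewer lowest values than sample 5. The highest value fell in sample 1 for 1 member, against 17.3% of expressed genes, in sample 2 for 2, against 15.6%, in sample 4 for 1, against 12.6%, in sample 5 for 1, against 12.1%, and in sample 6 for 5, against 11.4%. The lowest fell in sample 1 for 3 members, against 21.6% of expressed genes, in sample 2 for 2, against 11.6%, in sample 3 for 0, against 11.1%, in sample 4 for 2, against 20.7%, and in sample 6 for 1, against 15%. Sample 3 was thus the lowest for 0 expressed members after median scaling, whereas by deposited signal it was the lowest for Rpl13a and Rps24. After median scaling sample 6 held the highest value of more members than any sample but sample 3.

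**Figure D2:**
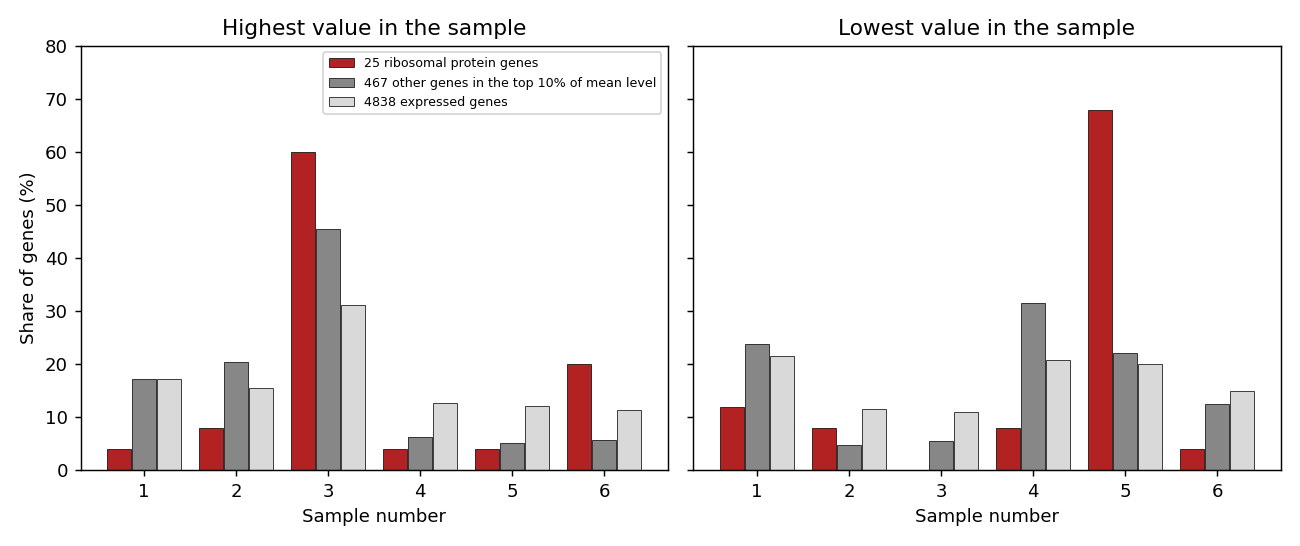
Share of genes (%, vertical axis) with their highest value (left) and their lowest value (right) in each of samples 1 to 6, for the 25 expressed ribosomal protein genes, the 467 other genes in the top 10% of mean level and all 4838 expressed genes. Sample 3 holds the highest value of 15 members and sample 5 the lowest of 17.

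The size of this pattern was small and depended in part on how arrays were made comparable. The score of a sample, the median over the members of the deviation from each gene's own median, was 0.00, 0.02, 0.11, -0.03, -0.12 and 0.00 in samples 1 to 6. Sample 3 thus stood 0.24 above sample 5 on the log2 scale, or 1.18-fold, where the 467 other bright genes stood 0.11 apart and all expressed genes 0.06. With quantile normalization, which gives all arrays the same distribution, the member scores were 0.01 in sample 3 and -0.04 in sample 5, and 17 of the 25 members were higher in sample 3 than in sample 5, against 53.0% of expressed genes and 49.9% of the other bright genes. The lowest value was then still in sample 5 for 12 of the 25 members, against 18% of expressed genes and 12.8% of the other bright genes, and the highest in sample 3 for 11, against 19.5% and 18.6%. With arrays centred on the other bright genes instead, 8 members were highest in sample 3, against 14.6% of expressed genes, and 13 lowest in sample 5, against 15%.

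Both subunits had their lowest score in sample 5. The large-subunit score was -0.04, 0.00, 0.07, 0.00, -0.13 and 0.01 in samples 1 to 6, and the small-subunit score 0.01, 0.03, 0.13, -0.05, -0.11 and -0.01. With quantile normalization the large-subunit score no longer peaked in sample 3, at -0.01 there and 0.07 in sample 6, whereas the small-subunit score was still highest in sample 3 (0.06). Sample 5 remained lowest after it, at -0.04 for the large and -0.06 for the small subunit.

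**Figure D3:**
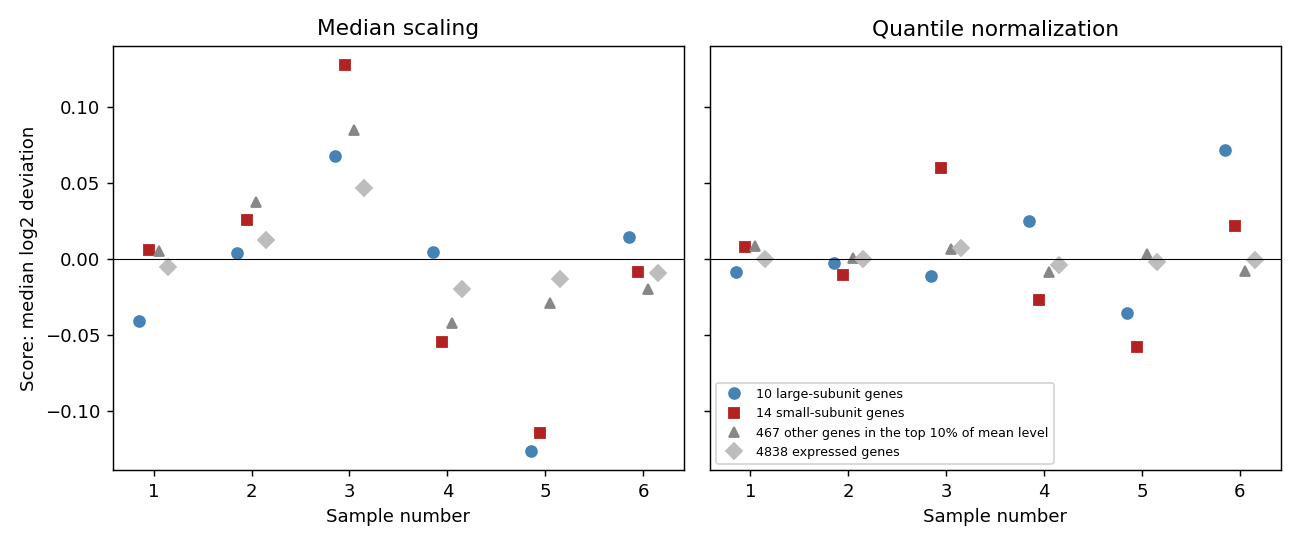
Score of each sample (median over genes of the log2 difference from each gene's median, vertical axis) for samples 1 to 6 (horizontal axis), after median scaling (left) and quantile normalization (right), for the 10 large-subunit genes, the 14 small-subunit genes, the 467 other bright genes and all expressed genes. Sample 5 is lowest for both subunits in both panels, and the height of sample 3 shrinks after quantile normalization.

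The stalk gene Rplp0 encodes the protein that anchors the P1 and P2 pairs, to which elongation factors dock. Its signals were 1856, 1797, 1904, 1884, 1781 and 1785 in samples 1 to 6, a range of 0.17 on the log2 scale. It was highest in sample 3 and lowest in sample 5, by very little in either case, and after quantile normalization it was instead highest in sample 4 and lowest in sample 2.

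Among the large-subunit genes Rpl22, which encodes an RNA-binding protein on the outer face of the subunit, differed most. Its signals were 182, 232, 296, 239.6, 239 and 268 in samples 1 to 6, a range of 0.77 (1.70-fold). Sample 1 was low and sample 3 high, with the other 4 samples between. A second, dimmer probe set of Rpl22, at 67.7, 73.7, 69.9, 69.0, 81.8 and 53.8, did not show this order and was highest in sample 5.

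Rpl10a, whose protein sits on the L1 stalk beside the tRNA exit site, had signals of 886, 894, 893, 935, 750.4 and 966 in samples 1 to 6. Sample 5 stood apart below the other 5, which lay close together, for a range of 0.37. Its second probe set, whose name marks shared probes, had signals of 513, 568, 559.8, 592, 512 and 573, with sample 5 lowest and sample 1 next to it.

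Rpl7a, a protein found in archaea and eukaryotes, had signals of 1254, 1350, 1251, 1365, 1134 and 1376, again lowest in sample 5, with a range of 0.29. Rpl6, a eukaryote-specific protein, had 1736, 1768, 1855, 1781, 1583 and 1769. Its range of 0.30 was set by sample 3 above and sample 5 below 4 nearly equal samples, and its median correlation with the other members was the highest of the 25 (0.73).

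Rpl19, whose protein reaches into the small subunit to bridge both, had 2626, 2625, 2775, 2685, 2439 and 2585 in samples 1 to 6, a range of 0.26. Rpl7, the counterpart of bacterial L30, had 2101, 1916, 2023, 1862, 1795 and 1946, a range of 0.25. Sample 5 was the lowest for both, while Rpl7 had its highest deposited signal in sample 1 and its highest scaled value in sample 3. Rpl8, which binds the ribosomal RNA core near the peptidyl transferase centre, had 2334, 2280, 2218, 2103, 1993 and 2347, a range of 0.24, with samples 4 and 5 low.

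Rpl41, the gene of the smallest ribosomal protein, was among those that were not lowest in sample 5. Its signals were 7253, 8162, 8688, 8665, 7861 and 8533 in samples 1 to 6, a range of 0.33, with sample 1 lowest, sample 5 next and samples 3, 4 and 6 close together above. Rpl37a, a zinc-binding protein, had 1515, 1550, 1557, 1794, 1590 and 1620, a range of 0.23, and sample 4 alone was high. Rpl13a, known also as part of a translation-silencing complex in human myeloid cells, had 196, 195, 178, 184, 187 and 211, a range of 0.21, with sample 6 high.

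Of the small-subunit genes at high level, Rps19 alone was above its own median in sample 5, and in sample 3 it was above it as well (0.20). Its protein is needed for maturation of the small-subunit RNA, and its human gene is mutated in Diamond-Blackfan anaemia. The signals were 623, 604, 681, 566, 757 and 500.2 in samples 1 to 6, a range of 0.59 (1.51-fold), with sample 5 highest and sample 6 lowest. It was 1 of 2 members whose median correlation with the other members lay below 0 (-0.13), Rps29 being the other (-0.29).

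Rps3, whose protein lies at the mRNA entry channel and which also has a role in DNA repair, had signals of 1949, 1893, 2171, 1705, 1593 and 1765. Sample 3 was high, samples 1 and 2 came next, and samples 4 to 6 were low, for a range of 0.52 (1.44-fold). Rps18, a protein of the small-subunit head, had 1934, 2210, 2394, 2265, 1894 and 2225, a range of 0.41. Samples 1 and 5 were both low for Rps18 and the other 4 lay above them. Rps10, which ubiquitin ligases modify when ribosomes stall, had 1243, 1403, 1487, 1378, 1238 and 1276, a range of 0.34, with samples 1, 5 and 6 low.

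Rpsa, also known as the laminin receptor precursor, is a protein of the small-subunit back near the mRNA exit. Its signals were 618, 704, 720.2, 664, 607 and 704 in samples 1 to 6, a range of 0.32, with samples 1 and 5 low as for Rps18. Rps7, which takes part in small-subunit assembly, had 2250, 2182, 2290, 2059, 1986 and 2156, a range of 0.28. Rps4x, the X-linked copy of the S4 gene, had 2421, 2438, 2558, 2369, 2268 and 2529, a range of 0.25. Rps3a1, at the mRNA exit side, had 3027, 3066, 3107, 2847, 2811 and 2993, a range of 0.22. Sample 5 was the lowest for each of these 4 genes and sample 3 the highest.

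The narrowest of all members were Rps28, Rps27 and Rps24. Rps28, a small protein beside the mRNA exit, had signals of 4786, 4667, 4563, 4647, 4312 and 4491 in samples 1 to 6, a range of 0.16. A second bright probe set of Rps28, whose name marks no sharing, had 2257, 2190, 2315, 2073, 1813 and 2122, with a range of 0.43, and sample 5 was the lowest on both. Rps27, a zinc-finger protein of the small subunit, had 324, 333, 334, 315, 349 and 335, a range of 0.16, with sample 4 lowest. Its highest deposited signal was in sample 5. After median scaling its highest value was in sample 3, at 0.05 above its median against 0.04 in sample 5. Rps24 had 5624, 5836, 5317, 5716, 5350 and 5581, a range of 0.17, with the 6 samples close together. Its human gene is another Diamond-Blackfan anaemia gene.

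The remaining small-subunit genes, Rps13, Rps29 and Rps4l, were dim. Rps13, which binds ribosomal RNA of the small subunit, had signals of 119, 129, 90.4, 115, 81.9 and 149 in samples 1 to 6, a range of 0.87 (1.83-fold) and the largest of the 25, with samples 3 and 5 low and sample 6 high. Rps29, a zinc-binding protein, had 93.3, 67.9, 79.9, 103, 93.4 and 111, a range of 0.68 (1.60-fold), with sample 2 low. Rps4l, a gene related to Rps4x, had 198, 179, 221, 190.1, 196 and 201, a range of 0.34, with sample 3 high and sample 2 low. The 6 members with a median level of 3 or less had a median range of 0.51, against 0.28 for the 19 above that level.

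**Figure D4:**
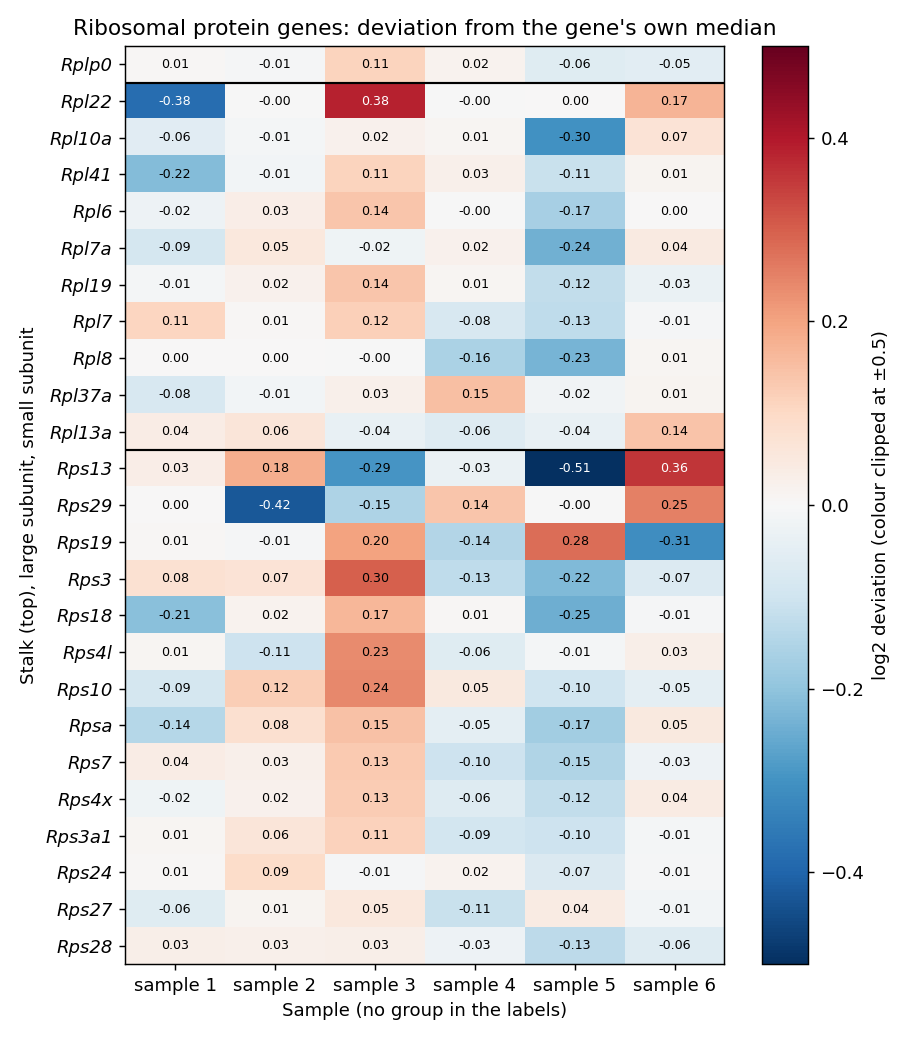
Log2 deviation of each of the 25 expressed members (rows, stalk gene at the top, then large subunit, then small subunit, each by falling range) from its own median, in samples 1 to 6 (columns), with colour limited at 0.5 either way. The column of sample 3 is mostly above 0 and that of sample 5 mostly below. Rps13, at -0.295 in sample 3, and Rps19, at 0.28 in sample 5, are exceptions.

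Agreement between members was highest among the bright ones. The median Pearson correlation over the 300 pairs of expressed members, across the 6 samples, was 0.42, against 0.27 for pairs of the 467 other bright genes and 0.05 for pairs of all expressed genes. It was 0.44 within the large subunit and stalk, 0.38 within the small subunit and 0.42 between them, so that genes of a subunit were about as alike as genes of different subunits. For the 19 members with a level over 3 it was 0.62. With quantile normalization the values were 0.25 for these 19, 0.17 for all expressed members, 0.01 for the other bright genes and 0.00 for all expressed genes. The median correlation was then 0.13 within the large subunit and stalk, 0.17 within the small subunit and 0.23 between them. All pairs share the same 6 arrays and their scaling, and these values are given as a description.

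Of the 35 members, 10 were below the array median in each of the 6 samples, a level at which signal and background were not separated here. They were Rpl32, Rpl35a, Rpl38, Rpl39, Rpl39l, Rpl7l1, Rps14, Rps15, Rps20 and Rps27l, with signals from 1.55 to 57.2. Rps27l is a variant of Rps27 and Rpl39l a variant of Rpl39 known from testis, whereas Rpl7l1 takes part in ribosome assembly. The other 7 encode core ribosomal proteins, and the low signal of these probe sets says nothing about whether the mRNA was present. In 8 of the 10, at least 1 value lay at the floor, and their ranges were not read.

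Probe sets that the annotation gives to several genes offer a further look at the family, without a gene name. These 39 probe sets list a ribosomal protein gene together with other symbols, mostly pseudogenes or predicted genes, and 34 were expressed. They were added after the values were seen. Their scores were 0.00, 0.03, 0.11, -0.01, -0.09 and -0.02 in samples 1 to 6, next to 0.00, 0.02, 0.11, -0.03, -0.12 and 0.00 for the named members. Of the 34, 18 were highest in sample 3, 16 were lowest in sample 5 and 29 were higher in sample 3 than in sample 5. Of all expressed genes 31.1%, 20% and 64.3% did so, and of the 467 other bright genes 45.4%, 22.1% and 81.6%. They were read on the same 6 arrays, some list the same genes as each other, and their probes may read more than 1 transcript. Shared probes are also a limit for 6 of the 25 named members, Rpl41, Rpl7, Rps13, Rps24, Rps28 and Rps4l, whose probe set names mark shared or less specific probes.

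Other genes of translation were taken from lists chosen with earlier results of these data known. Of 26 translation factors and other mRNAs known to carry a TOP tract, 21 were measured and 16 expressed, with a median range of 0.40. Their score was highest in sample 3, at 0.13, and lowest in sample 1, at -0.05, and 10 of the 16 were highest in sample 3, against 31.1% of all expressed genes, and 4 lowest in sample 5, against 20%. Eef1a1, the elongation factor that carries tRNA to the ribosome, had signals of 7268, 7055, 7197, 7209, 6881 and 7211, a range of 0.14, with sample 5 lowest by a small margin. Tpt1, a growth-related protein with a strong TOP tract, had 4336, 4680, 4993, 4640, 4259 and 4565, a range of 0.30, with sample 3 high and samples 1 and 5 low. Btf3, which assists nascent chains, had 344, 424, 498, 401, 339 and 387, a range of 0.63, with sample 3 high and samples 1 and 5 low. In contrast Cct2, a subunit of the TRiC chaperonin, and the translation factor genes Eef1d, Eif3e and Eif4b were highest in sample 5, where Cct2 had 167 against 101 to 133 in the other samples. Eef2, the translocation factor, had 1969 in sample 3, its highest, and 1752 in sample 6, its lowest, a range of 0.24. The widest gene of the list was Hnrnpa1, an RNA-binding splicing protein, with a range of 0.78.

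Mitochondrial ribosomal proteins, which serve a separate ribosome inside mitochondria, had 61 measured and 52 expressed genes. Their scores were 0.02, 0.04, 0.11, -0.02, -0.05 and -0.07 in samples 1 to 6, highest in sample 3 like the cytosolic members and lowest in sample 6. Of the 52, 21 were highest in sample 3 and 18 lowest in sample 5, and 40 were higher in sample 3 than in sample 5, where 31.1%, 20% and 64.3% of all expressed genes did so. The widest was Mrps28 (0.92), and Mrpl40 had 144, 113, 164, 135, 97.6 and 142, with sample 3 high and sample 5 low.

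Factors of ribosomal RNA synthesis and ribosome assembly had 36 expressed genes of 47 measured, with scores between -0.02 and 0.04, and 13 of the 36 were highest in sample 3 and 7 lowest in sample 5, near the 31.1% and 20% of all expressed genes. Fbl, the methyltransferase of nucleolar RNA, had 281, 291, 282, 292, 282 and 298, a range of 0.08, and Npm1, a nucleolar chaperone, ranged 0.28. The widest was Polr1d, a subunit shared by RNA polymerases I and III, lowest in sample 4 (43.4) and highest in sample 1 (93.1). For mTOR and S6 kinase signalling 8 of 11 measured genes were expressed, 0 were highest in sample 3 and 1 was lowest in sample 5. Among them Larp1, the protein that binds TOP mRNAs, ranged 0.11, Tsc2, an mTOR inhibitor, ranged 0.81 with sample 5 highest at 662, and Rps6kb2, an S6 kinase, had 143, 95.9, 128, 84.4, 96.8 and 113. Fau, which encodes a further small-subunit protein as a fusion, was below the array median throughout, at 28.8 to 41.8.

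Several control measures moved in sample 3, some in samples 1 and 5, and their part in the results above was not tested. The ratio of 3' to 5' signal was highest in sample 3 for 2 control transcripts, 3.47 for the transferrin receptor, against 2.54 to 3.02 in the other samples, and 3.56 for pyruvate carboxylase, against 1.57 to 2.61. For beta-actin and Gapdh this ratio was highest in sample 1. The 18S ribosomal RNA control probe sets, which read the RNA of the small subunit, were lowest in sample 3 at all 3 positions, with 217 at the 3' position against 371 to 1143 in the other samples. In sample 5 the 18S signal at the 5' position was the highest of the 6, at 331, and the 3' signal of 526 lay within the others. The 18S ratio of 3' to 5' signal was highest in sample 1 (10.3), 7.71 in sample 3 and lowest in sample 5 (1.59). Beta-actin had its lowest 3' signal in sample 3, at 6690, against 8136 to 10332 elsewhere. Scores of cell type marker lists in samples 3 and 5 were 0.05 and 0.00 for neurons (8 expressed genes), -0.04 and 0.06 for hippocampal fields (6), 0.13 and 0.14 for oligodendrocytes (7), 0.14 and 0.05 for astrocytes (7), 0.06 and -0.05 for microglia (6), and -0.29 and 0.11 for endothelium (3). Within the neuronal list, 5 of the 8 expressed genes were higher in sample 3 than in sample 5, against 64.3% of all expressed genes. Thy1 was highest in sample 3 (2987) and lowest in sample 5 (2514). Camk2a, a kinase of excitatory synapses and the widest gene of this list, ran opposite to Thy1 and to most ribosomal protein genes. Its lowest signal, 274.8, was in sample 3 and its highest, 1016, in sample 5, a range of 1.81 (3.51-fold). The choroid plexus list (2 expressed genes) stood at -0.57 in sample 3 and 0.59 in sample 5, with its extremes at -2.92 in sample 1 and 1.72 in sample 6, and the blood list (2) at -0.11 and 0.01. In bulk tissue, fewer cells of a type and less RNA per cell cannot be told apart.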

How the data were processed

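RNA of 6 mouse hippocampus samples was measured on arrays of 12488 probe sets, of which 66 are controls. The deposited intensity values are signal per probe set on a linear scale, in 1 table. How the authors scanned the arrays, summarised probes and scaled them is not stated in the labels. All arrays had a trimmed mean of 150.0, taken without the lowest and highest 2 percent of values, with 0 missing values and 0 identical columns among the 15 pairs. The number of arrays limits the precision. Symbols came from the platform annotation, with 35 of 35 members matched by gene identifier to RefSeq (GRCm38.p6). Values were scaled, floored and logged as described above with Python 3.11.15, pandas 2.3.3 and numpy 2.4.6. The scores were tested on simulated data with planted shifts larger than any member score found here. That test does not bear on scores as small as these. The members and gene lists were chosen with earlier results of these data known. Every member is named, and of the other lists the widest gene and those a result turns on. Since no sample has a group, no test between groups, SD of a group or p-value was computed, and Dixon's ratio served only to point out a sample far from the others. Alternatives were other scalings, floors, filters and probe set rules, and each sample left out.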

Additional observations from a re-analysis of the deposited data

Results flagged for a closer look

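Among 28 sets of 6 values examined (25 members and 3 scores), 1 had a sample far from the others. Rpl10a was lowest in sample 5, with a gap to the next sample of 0.667 of its whole range, above Dixon's 95% critical value for 6 values, and its signal was 750.4 there. Chance alone picks out about 1 in 20 such sets.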

How the results depend on the processing

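Of 153 values of the leading results (median range, median correlation, the 6 scores, and the counts highest in sample 3 and lowest in sample 5) under 17 alternatives, 9 moved and 144 did not. A score was counted as moved when it changed by more than the SD of the 6 scores, a wide allowance, and the other values when they changed by over 1.5 times. That SD came mostly from samples 3 and 5, so the scores near 0 of samples 1, 2, 4 and 6 could hardly move. A floor at the array median could change none of these values, since 0 expressed members had a value under it. The 144 are thus no measure of stability. The median correlation of 0.42 was 0.17 with quantile normalization, 0.23 with no scaling, 0.21 with arrays centred on the other bright genes and 0.25 with no expression filter, and lay between 0.29 and 0.52 when each sample was left out. With quantile normalization the scores of samples 3 and 5 were 0.0095 and -0.037. The sample 3 score of 0.11 was also lower, within that allowance, with no scaling (0.06), 75th percentile scaling (0.07) and centring on the bright genes (0.04). The sample 4 score lay between -0.051 and 0.0087 over the alternatives, on either side of 0. Centred on the bright genes, 8 of 25 members were highest in sample 3, where 14.6% of expressed genes then were, and 13 lowest in sample 5, against 15%. With the probe sets of several symbols added, chosen after seeing the data, 33 of 59 were highest in sample 3, against 31.1% of expressed genes, and 33 lowest in sample 5, against 20%, since more probe sets were counted. The median range lay between 0.21 and 0.29 when each sample was left out and between 0.22 and 0.34 under the other alternatives. The cause of these changes was otherwise not tested. Of 150 values of the smaller counts, 67 moved by over 1.5 times. No paired analysis was possible because no sample has a group. Signal over background was not measured, so dim members have the least certain values.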
